A study of Mus musculus with 2 samples.

Results

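The 40 genes described here run the cell cycle: 17 act at the entry into and during DNA replication and 23 act in G2 and mitosis. They were chosen as a list of names, with earlier results of these data known. All 40 of them were found with the same gene identifiers in both count matrices, among 31054 features of the normal library and 32285 features of the wounded library. The list is made of the cyclins of the G1/S step (Ccne1 and Ccne2), 9 genes of origin licensing and of the replicative helicase, 6 genes of the replication fork, nucleotide supply and repair, Cdk1 with its cyclins (4 genes), 5 mitotic kinases and partners, 4 genes of the spindle checkpoint and of the anaphase-promoting complex, 7 genes of the kinetochore and spindle, and 3 genes of mitotic chromatin (Mki67, Top2a and Hmgb2). The study profiled sorted epithelial cells of the mouse anorectal junction, where the stratified epithelium of the anal canal meets the glandular epithelium of the rectum, by droplet single-cell RNA sequencing of transcript 3′ ends. Both libraries came from C57/BL6J animals of the K17CreERT2;R26RGFP model, in which tamoxifen switches on a recombinase driven by the Krt17 promoter and thereby a green reporter, so both carried the driver, the reporter allele and the tamoxifen treatment. The isolation protocol of the study pooled at least 5 mice, and no separate number is given for the wounded library. The normal library was unwounded. The wounded library was taken 1 week after hot EDTA and an electric brush had been used to remove rectal crypts near the junction. Each condition was 1 library, so no test between conditions or clusters was possible, and every interval below covers counting error only.

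Dividing cells switch these genes on in successive waves. At the end of G1, cyclin E with its kinase helps to release the E2F factors, which raise the genes that load replication origins, build the helicase and supply nucleotides. Later, in G2, promoters that hold a CHR element and CCAAT boxes are released from the DREAM complex and driven by MYBL2 and FOXM1, which raises the Cdk1 cyclins, mitotic kinases, motors and kinetochore proteins. In stratified epithelia division takes place in and near the basal layer and ceases as cells differentiate upwards, whereas in the rectum it takes place in crypts.

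Promoters of both waves are shown first, because E2F letters were more frequent in G1/S genes and CHR letters in G2/M genes. The 5 printed genes were picked as examples that hold such letters. They are helicase subunits (Mcm5 and Mcm6) and mitotic genes (Top2a, Kif11 and Mki67). RefSeq promoter sequences (GRCm38.p6, 250 bases before to 50 bases after the transcript start) were matched for 34 of the 40 members, 14 of the G1/S and 20 of the G2/M genes. Each line gives the 160 bases before the start, 5′ to 3′ on the strand of the gene, with the letters of 3 motifs in capitals, read on either strand. For Mcm6, a subunit of the replicative helicase, the window is chr1:128359706-128359865 on the minus strand. For Mcm5, another subunit, it is chr8:75109349-75109508 on the plus strand. For Top2a, the topoisomerase that untangles chromosomes, it is chr11:99024190-99024349 on the minus strand. For Kif11, the kinesin that pushes the spindle poles apart, it is chr19:37376222-37376381 on the plus strand. For Mki67, which coats mitotic chromosomes, it is chr7:135716380-135716539 on the minus strand.
Mcm6: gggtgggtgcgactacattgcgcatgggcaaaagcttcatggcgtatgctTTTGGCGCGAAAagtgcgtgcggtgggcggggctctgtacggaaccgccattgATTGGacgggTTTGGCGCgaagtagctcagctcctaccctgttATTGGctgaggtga
Mcm5: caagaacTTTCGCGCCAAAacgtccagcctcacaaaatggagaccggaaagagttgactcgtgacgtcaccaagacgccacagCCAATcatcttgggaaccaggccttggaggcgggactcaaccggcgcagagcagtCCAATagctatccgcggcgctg
Top2a: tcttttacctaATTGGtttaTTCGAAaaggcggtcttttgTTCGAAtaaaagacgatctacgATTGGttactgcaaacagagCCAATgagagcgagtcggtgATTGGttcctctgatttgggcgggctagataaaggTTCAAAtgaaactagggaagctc
Kif11: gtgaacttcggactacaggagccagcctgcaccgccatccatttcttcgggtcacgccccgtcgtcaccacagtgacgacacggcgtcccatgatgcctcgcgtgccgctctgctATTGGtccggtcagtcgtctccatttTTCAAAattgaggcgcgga
Mki67: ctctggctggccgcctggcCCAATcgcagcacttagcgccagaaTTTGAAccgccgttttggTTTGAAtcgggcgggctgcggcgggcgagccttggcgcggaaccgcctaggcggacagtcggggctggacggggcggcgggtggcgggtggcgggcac
The motifs were searched on both strands as exact letters: TTTCCCGC, TTTCGCGC, TTTGCCGC or TTTGGCGC for E2F, TTTGAA or TTCGAA for the CHR, and CCAAT. Matches to different motifs did not overlap in these 5 windows, but 2 E2F matches on opposite strands overlapped in Mcm6 and in Mcm5 and were printed as 1 run of capitals. E2F letters were present in 6 of 14 G1/S genes (Cdc6, Cdt1, Mcm3, Mcm5, Mcm6 and Mcm7) and in 1 of 20 G2/M genes (Cdk1), against 2.6% of all 27025 genes with a promoter. CHR letters were present in 2 of 14 G1/S genes (Mcm2 and Mcm7) and in 16 of 20 G2/M genes, against 21.7% of all genes. CCAAT letters were present in 8 of 14 and 17 of 20 genes, against 41.1% of all genes. A match describes letters in this window and was not tested as a binding site.

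After the cell filters of the study (more than 200 and fewer than 5000 genes, under 25% mitochondrial UMIs), 1548 of 2564 normal and 5225 of 17216 wounded barcodes passed. A UMI is a molecular tag that counts 1 captured transcript. The deposited tables named 939 normal cells in 4 clusters and 4147 wounded cells in 6 clusters. This left 610 normal and 1078 wounded filter-passing cells outside the tables, since 1 named normal cell did not pass the gene limit. The libraries shared 1 barcode sequence, and 0 after filtering. Median depth was 8437.5 to 11543 UMIs per cell in the normal clusters and 8532 to 12616 UMIs in 5 wounded clusters, but 2390 UMIs in the wounded cluster named Hybrid. Median mitochondrial shares were 4.28% to 9.26% in normal and 5.91% to 12.9% in wounded clusters. Both Rectum clusters carried all 8 rectal markers, with summed levels of 10050 and 8383 CPM in normal and wounded, where CPM is the UMIs of a gene per 1000000 UMIs of the same cells. Wounded Basal, Suprabasal, Regeneration and Wound_Stress also held all 8, at 134 to 259 CPM. The Rectum clusters differed in goblet markers, which summed to 3760 CPM in normal and 7939 CPM in wounded Rectum. The label Hybrid covered a mixture of marker classes, with 3159 CPM of basal stratified, 1343 CPM of rectal and 20817 CPM of enteroendocrine markers. In wounded Rectum the enteroendocrine markers summed to 13.1 CPM, and in normal Rectum to 88.0 CPM. Their highest normal sum was in Basal, at 894 CPM, and the part of such cells in the normal Basal levels was not tested. Hybrid also held all 4 hair matrix markers, at 367 CPM against 0.402 to 3.66 CPM in the other wounded clusters, and all 8 hair follicle markers, at 1471 CPM against 125 to 339 CPM. Clusters of the same name did not hold the same cells by markers: the 6 suprabasal stratified markers summed to 388 CPM in normal and 5454 CPM in wounded Basal, and to 2808 CPM in normal and 2115 CPM in wounded Suprabasal. The 8 anal gland markers summed to 1390 CPM in normal and 7714 CPM in wounded Basal. The authors had clustered the cells after regressing out S and G2/M scores, and the members were among the genes measured in those cells, so differences between clusters are descriptions.

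In the normal library the members were highest in Anal Canal and lowest in Suprabasal cells. Anal Canal had the highest level of 27 of 40 members, including 17 of 17 G1/S members, and Suprabasal had the lowest level of 31 of 40. Median levels of the G1/S members were 30.7 CPM in Basal, 14.0 CPM in Suprabasal, 43.4 CPM in Anal Canal and 19.9 CPM in Rectum. For the G2/M members the medians were 44.7, 20.6, 52.3 and 45.4 CPM in the same order. Rectum thus ranked differently by wave, with the lowest level of 7 G1/S members and the highest level of 8 G2/M members.

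In the wounded library the Hybrid cluster had the highest level of 31 of 40 members and Suprabasal the lowest level of 34 of 40. The hair matrix and hair follicle markers were highest in the same cluster (367 and 1471 CPM), and the part of such cells in these levels was not tested. Median levels of the G1/S members were 38.4 CPM in Hybrid, 25.1 CPM in Wound_Stress, 23.5 CPM in Regeneration, 23.3 CPM in Basal, 15.8 CPM in Rectum and 11.1 CPM in Suprabasal. For the G2/M members they were 50.6 CPM in Hybrid, 47.4 CPM in Basal, 36.6 CPM in Wound_Stress, 35.3 CPM in Regeneration, 24.1 CPM in Rectum and 20.5 CPM in Suprabasal. Basal held the highest level of 7 G2/M members, and Wound_Stress that of Tyms, which makes thymidylate, and of Cdt1, which loads the helicase at origins.

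**Figure D1:**
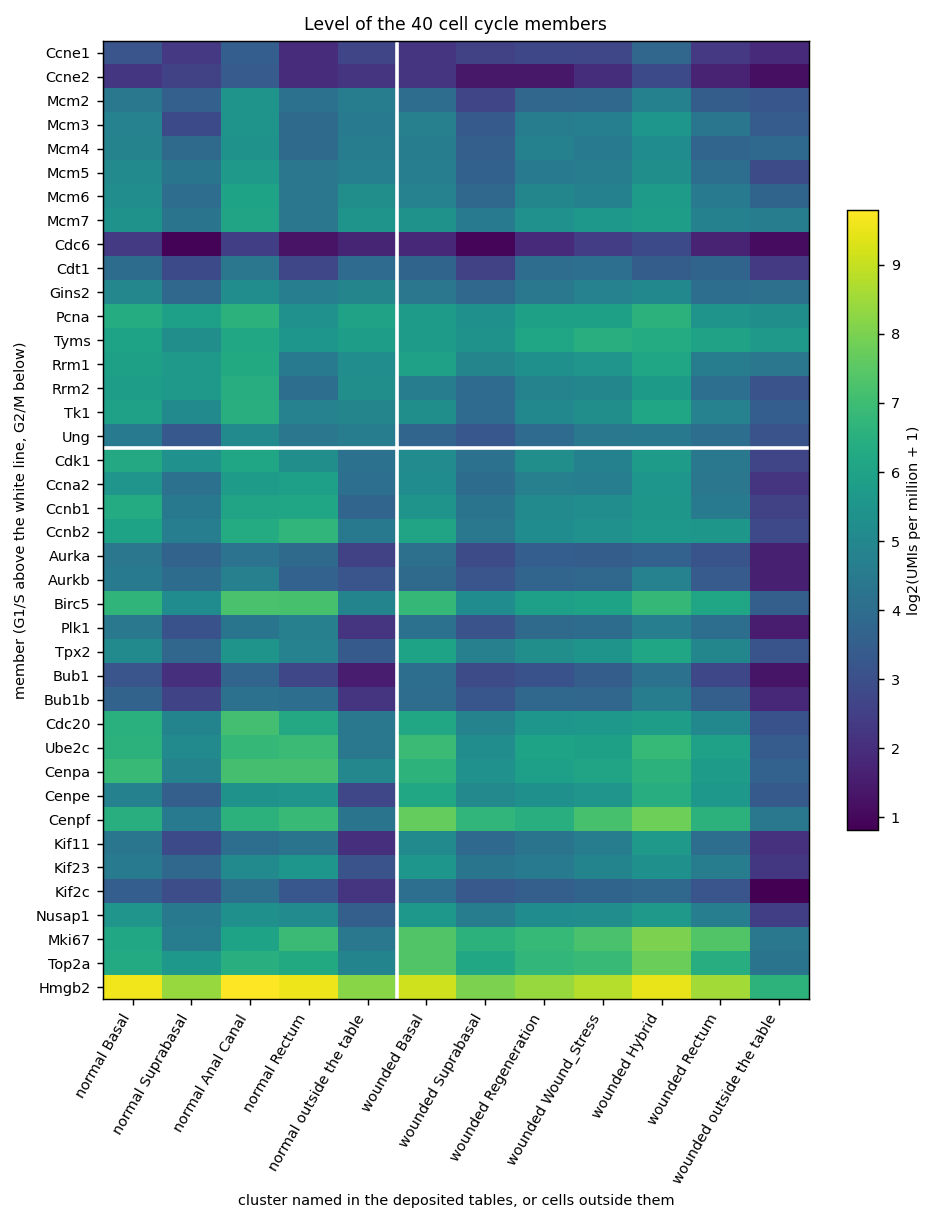
Heat map of the level of each of the 40 members (rows, G1/S above and G2/M below the white line) in each named cluster and in the cells outside the tables (columns, normal left and wounded right), with colour as log2 of CPM plus 1. Suprabasal columns are dark in both libraries, Anal Canal and Hybrid are bright, and the G2/M rows are dark in cells outside the tables.

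Among the G1/S cyclins, Ccne1 stood at 8.13 CPM in normal Basal, 3.94 CPM in Suprabasal, 10.3 CPM in Anal Canal and 2.84 CPM in Rectum. After the wound it stood at 3.48 CPM in Basal, 4.92 CPM in Suprabasal, 5.84 CPM in Regeneration, 5.63 CPM in Wound_Stress, 12.8 CPM in Hybrid and 3.89 CPM in Rectum. Ccne1 and Ccne2 were sparse, and Ccne2 ranged from 1.61 to 9.59 CPM over the 10 clusters.

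Among the licensing and helicase genes, Mcm6 stood at 35.9 CPM in normal Basal, 15.3 CPM in Suprabasal, 63.7 CPM in Anal Canal and 19.9 CPM in Rectum. In the wounded clusters it stood at 27.0 CPM in Basal, 13.0 CPM in Suprabasal, 29.8 CPM in Regeneration, 26.0 CPM in Wound_Stress, 53.9 CPM in Hybrid and 22.6 CPM in Rectum. Mcm7, the subunit with the most UMIs, stood at 41.0 CPM in normal Basal, 18.4 CPM in Suprabasal, 65.3 CPM in Anal Canal and 19.9 CPM in Rectum. All 6 subunits of the ring were highest in Anal Canal and in Hybrid, and Mcm7 was at 57.3 CPM in Hybrid, 47.6 CPM in Wound_Stress and 21.5 CPM in wounded Suprabasal. Cdc6, which loads that ring with Cdt1, reached at most 6.07 CPM.

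Of the fork and nucleotide genes, Pcna, the sliding clamp, stood at 82.8 CPM in normal Basal, 58.7 CPM in Suprabasal, 94.95 CPM in Anal Canal and 39.8 CPM in Rectum. Its wounded levels were 54.5 CPM in Basal, 38.5 CPM in Suprabasal, 59.5 CPM in Regeneration, 60.05 CPM in Wound_Stress, 94.4 CPM in Hybrid and 43.1 CPM in Rectum. Tyms stood at 63.6 CPM in normal Basal, 37.2 CPM in Suprabasal, 73.3 CPM in Anal Canal and 45.4 CPM in Rectum. Its wounded levels were 53.5 CPM in Basal, 42.0 CPM in Suprabasal, 69.3 CPM in Regeneration, 87.1 CPM in Wound_Stress, 80.2 CPM in Hybrid and 62.3 CPM in Rectum. Unlike Pcna, it was highest in Wound_Stress. Rrm2, the regulated subunit of ribonucleotide reductase, spanned 15.6 to 84.2 CPM over the normal clusters and 14.3 to 51.2 CPM over the wounded ones.

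Of the Cdk1 cyclins, Ccnb2 stood at 63.6 CPM in normal Basal, 24.1 CPM in Suprabasal, 79.4 CPM in Anal Canal and 104 CPM in Rectum. Wounded clusters had levels of 65.0 CPM in Basal, 20.5 CPM in Suprabasal, 34.9 CPM in Regeneration, 40.2 CPM in Wound_Stress, 47.9 CPM in Hybrid and 46.0 CPM in Rectum. In contrast to Mcm6, Ccnb2 was highest in normal Rectum and in wounded Basal.

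Birc5, the passenger protein that helps to place Aurora B, stood at 102 CPM in normal Basal, 35.0 CPM in Suprabasal, 146 CPM in Anal Canal and 145 CPM in Rectum. After the wound it stood at 110 CPM in Basal, 34.9 CPM in Suprabasal, 58.3 CPM in Regeneration, 64.6 CPM in Wound_Stress, 111 CPM in Hybrid and 68.1 CPM in Rectum. It was low in Suprabasal cells of both libraries. Ube2c, the ubiquitin-conjugating enzyme of the anaphase-promoting complex, stood at 93.9 CPM in normal Basal, 32.4 CPM in Suprabasal, 111 CPM in Anal Canal and 121 CPM in Rectum. Wounded cells had levels of 123 CPM in Basal, 36.6 CPM in Suprabasal, 63.7 CPM in Regeneration, 59.9 CPM in Wound_Stress, 113 CPM in Hybrid and 61.6 CPM in Rectum. Its highest level was in Rectum in the normal and in Basal in the wounded library.

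Cenpf, a kinetochore protein, stood at 88.4 CPM in normal Basal, 22.3 CPM in Suprabasal, 95.9 CPM in Anal Canal and 119 CPM in Rectum. Its levels in wounded clusters were 205 CPM in Basal, 104 CPM in Suprabasal, 88.6 CPM in Regeneration, 143 CPM in Wound_Stress, 222 CPM in Hybrid and 94.9 CPM in Rectum. Mki67 stood at 70.2 CPM in normal Basal, 23.7 CPM in Suprabasal, 63.7 CPM in Anal Canal and 122 CPM in Rectum. The wounded levels of Mki67 were 162 CPM in Basal, 94.8 CPM in Suprabasal, 114 CPM in Regeneration, 149 CPM in Wound_Stress, 262 CPM in Hybrid and 165 CPM in Rectum. Basal, Suprabasal and Rectum each stood above the normal cluster of the same name, but in Rectum the direction turned, to a log2 ratio of -0.25, with cells under 10% mitochondrial UMIs. Top2a stood at 77.3 CPM in normal Basal, 48.2 CPM in Suprabasal, 87.0 CPM in Anal Canal and 76.7 CPM in Rectum. After the wound it stood at 162 CPM in Basal, 72.1 CPM in Suprabasal, 108 CPM in Regeneration, 119 CPM in Wound_Stress, 216 CPM in Hybrid and 83.2 CPM in Rectum. Like Mki67, it was highest in Hybrid. Hmgb2, a chromatin protein, stood at 785 CPM in normal Basal, 339 CPM in Suprabasal, 888 CPM in Anal Canal and 767 CPM in Rectum. Wounded clusters had levels of 567 CPM in Basal, 257 CPM in Suprabasal, 337 CPM in Regeneration, 448 CPM in Wound_Stress, 728 CPM in Hybrid and 370 CPM in Rectum. Unlike Mki67, Hmgb2 was lower in each wounded cluster than in the normal one of the same name.

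The order of neighbouring clusters was often within counting error. In normal clusters the 95% intervals of the highest level and the next overlapped for Ccne1, Pcna, Tyms, Ccnb2, Birc5, Ube2c, Cenpf and Top2a. They did not overlap for Mcm6, Mcm7 and Hmgb2 (Anal Canal highest) or for Mki67 (Rectum, 97.7 to 151 CPM, against Basal, 60.6 to 81.0 CPM). In wounded clusters they overlapped for Mcm7, Tyms, Ccnb2, Birc5, Ube2c and Cenpf. For Mki67, Hybrid (237 to 290 CPM) lay above Rectum (153 to 178 CPM), and Hybrid also lay apart for Mcm6, Ccne1, Pcna, Top2a and Hmgb2.

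Basal was compared with Suprabasal. In the normal library the study read these clusters as layers of the transition zone, the junction of both epithelia. For the wounded library the paper describes a joint cluster of anal canal and suprabasal transition zone cells, and a cluster of transition zone cells. Which deposited names these carry is not given in the sources used here. In the wounded library the names Basal and Suprabasal did not follow the suprabasal stratified markers. These were higher in Basal (5454 CPM) than in Suprabasal (2115 CPM). Ratios are log2 of Basal over Suprabasal with 95% counting intervals, and a gene entered with at least 20 UMIs in both groups together. In the normal library 24 of 39 members were at least 2-fold higher in Basal and 0 were at least 2-fold lower, against 17.1% higher and 6.57% lower among all 9682 genes. The median was 1.18 for the members (0.94 for G1/S, 1.40 for G2/M) and 0.29 for all genes. Cenpa, the centromeric histone, was at 2.10 (1.71 to 2.52) and Mcm3 at 2.12 (1.28 to 3.06). Rrm2, at 0.19 (-0.17 to 0.56), and Ccne2, at -0.38 (-1.78 to 0.99), did not differ beyond counting error.

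In the wounded library 27 of 40 members were at least 2-fold higher in Basal than in Suprabasal and 0 lower, against 11.3% and 9.85% of 12291 genes. The median was 1.15 for the members and 0.14 for all genes. Ube2c was at 1.75 (1.57 to 1.92), Ccnb2 at 1.67 (1.43 to 1.91), Mki67 at 0.77 (0.64 to 0.90) and Tyms at 0.35 (0.14 to 0.56). Ccne1, at -0.50 (-1.31 to 0.26), was the only member below 0. Of the other cell cycle genes listed beside the members (cyclins D, inhibitors, E2F and MuvB factors and checkpoint genes), 8 of 38 were higher and 1 was lower. Ccnd1, the G1 cyclin that answers growth signals, was at 3.72, and Cdkn1a, the inhibitor p21, at -1.51.

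**Figure D2:**
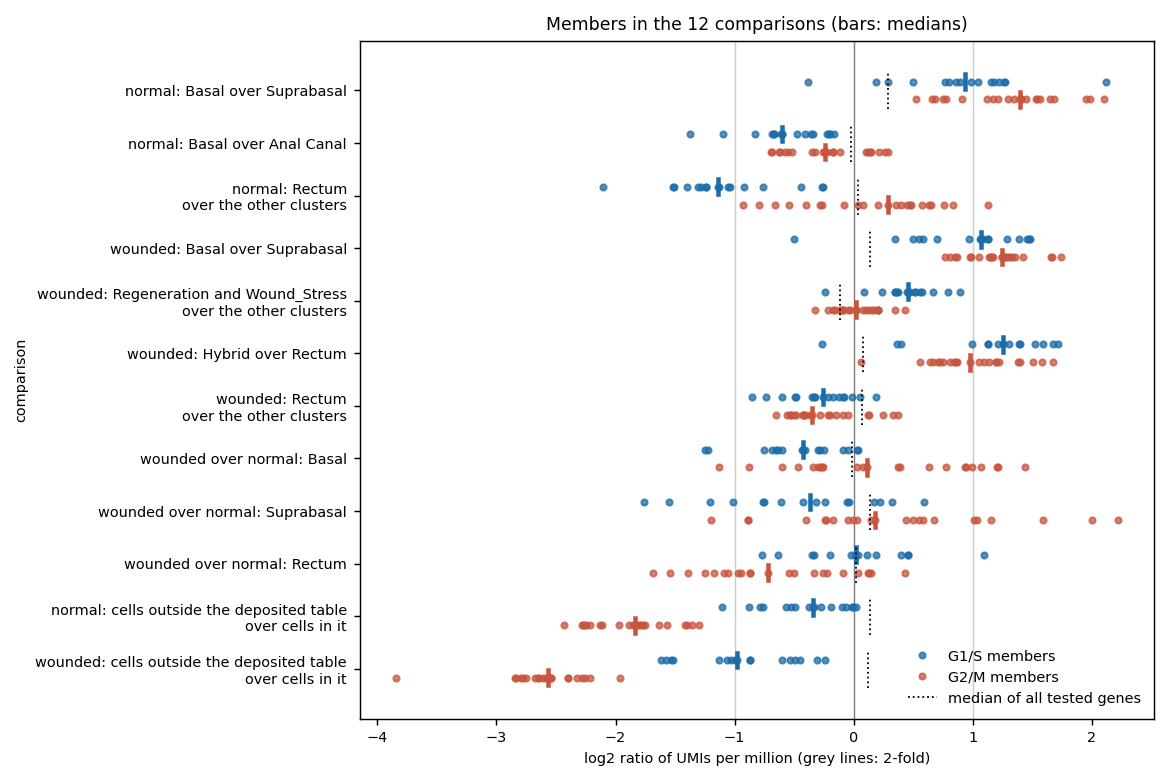
Log2 ratio of each member (points, G1/S in blue and G2/M in red) in the 12 comparisons, with a bar at the median of each list, a dotted line at the median of all genes and grey lines at 2-fold. The lists part most in normal Rectum over the other clusters (medians -1.14 and 0.29) and in cells outside over inside the tables (-0.34 and -1.84 in normal, -0.98 and -2.57 in wounded).

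Normal Basal was set against Anal Canal, the ends of a trajectory drawn by the study. Anal Canal held both marker sets of the stratified epithelium at higher levels than Basal. The basal markers summed to 18581 CPM in Anal Canal and 10632 CPM in Basal, and the suprabasal markers to 6456 and 388 CPM. Of 40 members, 0 were at least 2-fold higher in Basal and 2 were lower (Ccne2 and Mcm2), against 10.2% and 8.73% of 10571 genes. With CPM averaged over cells 7 were lower. Yet 17 of 17 G1/S ratios were below 0, with a median of -0.60, whereas the G2/M median was -0.24 and the median of all genes -0.02. Mcm2 was at -1.09 (-1.55 to -0.65) and Mcm6 at -0.83 (-1.18 to -0.49). Ccne2 was at -1.37 (-2.54 to -0.36). Kif11, at 0.29 (-0.26 to 0.83), and Ccnb1, at 0.27 (0.00 to 0.52), were the highest. Outside the members, Ccnd1 was 8.87 CPM in Basal and 119 CPM in Anal Canal.

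Normal Rectum against the other normal clusters separated the waves. All 12 members that were at least 2-fold lower were G1/S genes, and Mki67 was the 1 member at least 2-fold higher, against 20.2% lower and 17.5% higher among 11406 genes. The G1/S median was -1.14 and the G2/M median 0.29, which turned to -0.18 with CPM averaged over cells. Rrm2 was at -2.11 (-3.12 to -1.26), Ccne1 at -1.51 (-4.59 to 0.39) and Mcm6 at -1.14 (-2.03 to -0.38). Ccnb2 was at 0.76 (0.38 to 1.11), Kif23, a kinesin of cytokinesis, at 0.84 (0.26 to 1.38) and Mki67 at 1.13 (0.78 to 1.46). Only 63 cells formed this cluster, and with cells under 10% mitochondrial UMIs the counts became 4 higher and 7 lower.

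Wounded Rectum was compared with the rest in the same way. Of 40 members, 0 were at least 2-fold higher and 0 lower, against 17.9% and 18.2% of 14241 genes, with medians of -0.26 for G1/S and -0.35 for G2/M members. Rrm1 was at -0.85 (-1.17 to -0.55), Mcm4 at -0.73 (-1.17 to -0.32), Ccnb2 at 0.33 (0.10 to 0.55) and Mki67 at 0.37 (0.25 to 0.49). The difference between the libraries in this ratio was not tested.

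Regeneration and Wound_Stress, which the study named for the wound, were pooled and set against the other wounded clusters. No member reached 2-fold in either direction (0 higher, 0 lower), against 6.65% higher and 19.6% lower among 14241 genes. The G1/S median was 0.46, the G2/M median 0.02 and the median of all genes -0.11. Cdt1 was at 0.90 (0.63 to 1.16), Cdc6 at 0.79 (0.22 to 1.37), Tyms at 0.57 (0.46 to 0.68), Mki67 at -0.09 (-0.17 to -0.02), Ccne2 at -0.24 (-0.85 to 0.35) and Cenpf at -0.32 (-0.40 to -0.24). Averaging CPM over cells instead of summing UMIs turned the median of all members from 0.19 to -0.16, and with cells under 10% mitochondrial UMIs Mki67 was at 0.17. Ccnd1 was at 1.92 and 1.88 CPM in these clusters and at 103 CPM in wounded Basal.

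Hybrid, seen after the wound, was compared with Rectum. In summed UMIs 22 of 38 members were at least 2-fold higher in Hybrid and 0 lower, against 13.4% and 13.9% of 11114 genes, with a median of 1.13. Ccne1 was at 1.72 (0.68 to 2.77), Kif11 at 1.68 (1.18 to 2.18), Rrm2 at 1.67 (1.18 to 2.17), Mcm6 at 1.25 (0.80 to 1.70) and Mki67 at 0.67 (0.49 to 0.85). Ccnb2, at 0.06 (-0.36 to 0.46), and Cdt1, at -0.27 (-1.21 to 0.59), did not differ beyond counting error. In the whole numbers of the deposited table, whose sums per cell are more even between clusters (Hybrid median 8773 against 2390 UMIs as counted), 2 members were higher, 1 was lower, the median was 0.52 and Mki67 was at -0.02. The size of this difference therefore depended on which values were used.

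Single cells were then compared at equal depth, by drawing 2000 UMIs from each cell and counting cells with UMIs of at least 3 G2/M members. In the normal library these were 18.0% of Basal (13.5% to 23.3%), 6.56% of Suprabasal (3.43% to 11.2%), 29.2% of Anal Canal (24.8% to 34.0%) and 21.7% of Rectum cells (12.1% to 34.2%). In the wounded library they were 23.05% of Basal (19.6% to 26.8%), 9.61% of Suprabasal (7.87% to 11.6%), 14.0% of Regeneration, 13.4% of Wound_Stress, 33.2% of Hybrid (26.4% to 40.5%) and 15.5% of Rectum cells. The draw left out 132 of 316 Hybrid cells. As a background, anal gland-like cells outside the tables reached 1.10% (1 of 91, median 11453.5 UMIs) in the normal and 0.711% (3 of 422, median 14943 UMIs) in the wounded library. The order of clusters depended on the setting. Without thinning, wounded Basal (36.0%) stood above Hybrid (35.1%). At 5 genes in place of 3, Hybrid (19.6%) and wounded Basal (19.5%) were almost equal. With cells under 10% mitochondrial UMIs, normal Rectum (31.4%) stood above Anal Canal (28.9%).

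For the G1/S members the shares were 12.2% of Basal, 7.10% of Suprabasal, 17.4% of Anal Canal and 3.33% of Rectum cells in the normal library. In the wounded library they were 11.5% of Basal, 4.804% of Suprabasal, 7.91% of Regeneration, 7.21% of Wound_Stress, 13.6% of Hybrid and 5.65% of Rectum cells. Without thinning, Regeneration was highest (43.7%) and Hybrid lowest (19.0%) of the wounded clusters. Over all named cells, 12.8% of normal and 7.54% of wounded cells reached 3 G1/S members, and 20.9% and 15.1% reached 3 G2/M members. The cut is a range, not a cell type: 53 normal and 173 wounded cells had exactly 2 G2/M members and 33 and 84 had exactly 3.

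**Figure D3:**
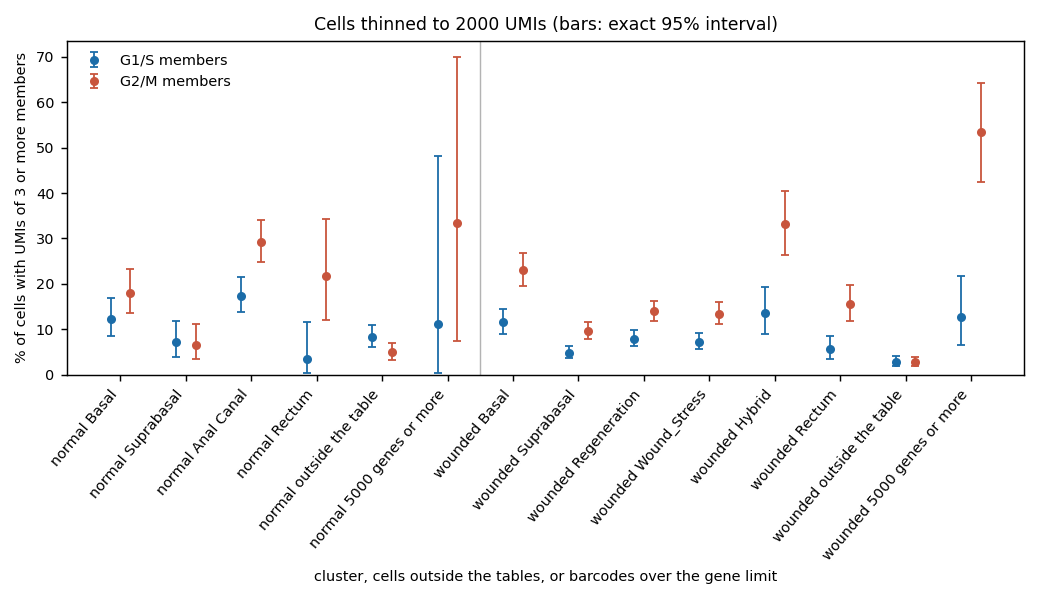
Percent of cells, thinned to 2000 UMIs, with UMIs of at least 3 G1/S (blue) or at least 3 G2/M members (red) in each cluster, in cells outside the tables and in barcodes with 5000 genes or more, with exact 95% intervals. Among named clusters Anal Canal (29.2%) and Hybrid (33.2%) have the highest G2/M shares at this setting, and the normal barcodes over the gene limit are only 9.

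Hybrid cells were not alike. None of the 29 cells with at least 3 enteroendocrine marker UMIs had 3 G2/M members (0 of 29, for which the limit of 3 counts in the total allows a share of up to 10.3% and the exact interval reaches 11.9%). Of the other 155 cells, 61 did, or 39.4% (31.6% to 47.5%). In another step, cells with at least 3 enteroendocrine marker UMIs before thinning were left out of both Hybrid and Rectum. The median ratio of Hybrid over Rectum was then 1.45. This alternative was chosen after seeing the data.

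Cells that reached 3 members of a list overlapped in part with those that reached 3 of the other. Among named normal cells, 115 reached 3 G1/S members, 187 reached 3 G2/M members and 40 reached both, which is 34.8% of the first and 21.4% of the second set. Among named wounded cells the numbers were 296, 592 and 140, or 47.3% and 23.6%. G2/M cells were thus more frequent among G1/S cells (34.8% and 47.3%) than among all named cells (20.9% and 15.1%). By cluster the overlap ran from 26.1% of the G1/S cells in Anal Canal (18 of 69) to 64.0% in Hybrid (16 of 25) and 70.0% in wounded Rectum (14 of 20), and in normal Suprabasal it was 53.8% of the G1/S and 58.3% of the G2/M cells (7 of 13 and 7 of 12). Across cells at 2000 UMIs the median correlation of pairs of G2/M members was 0.197 over 895 normal and 0.238 over 3926 wounded cells. For pairs of G1/S members it was 0.087 and 0.068, and for mixed pairs 0.005 and 0.019. Cells of a library share its depth and free RNA, and these weak values are descriptions.

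Each member was also compared between cells that held at least 3 and cells that held 0 of the other G2/M members. G2/M members were higher in the first. Their median log2 ratio was 6.39 over 23 genes in the normal and 6.87 over 23 in the wounded library. Both sets were chosen by members of the same list, and cells between the limits were left out. High ratios of G2/M members therefore follow in part from this choice, and no share of all genes is given beside them. In the normal library Plk1 and Bub1 had 0 UMIs in the second set of cells. They met the minimum, which was counted over both sets together, through the first set only. They entered the median of 6.39 and the following normal medians at lower bounds (6.41 and 5.32), computed at a floor of 3 UMIs. Mki67 was at 5.33 (4.69 to 6.06) and 6.03 (5.84 to 6.23). Hmgb2, which is also made outside mitosis, was lowest at 3.503 and 4.286. The G1/S medians were 1.11 over 16 genes and 1.79 over 17. Mcm6 was at 0.96 (0.52 to 1.39) and 1.68 (1.44 to 1.92), whereas Rrm2 in the wounded library reached 4.46, above Hmgb2. Tk1, at 3.79, and Rrm2, at 3.73, also lay above Hmgb2 in the normal library. Members with CHR letters had a median of 6.03 and those without 2.53 in the normal library, and 6.44 and 2.39 in the wounded library. Members with E2F letters had medians of 1.04 and 1.92, and those without 5.70 and 6.32. No minimum of UMIs was applied to these medians by letters, so Cdc6 entered in the normal library with 9 UMIs. Since E2F and CHR letters were unequally divided between the G1/S and G2/M lists, these medians do not stand apart from that division.

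**Figure D4:**
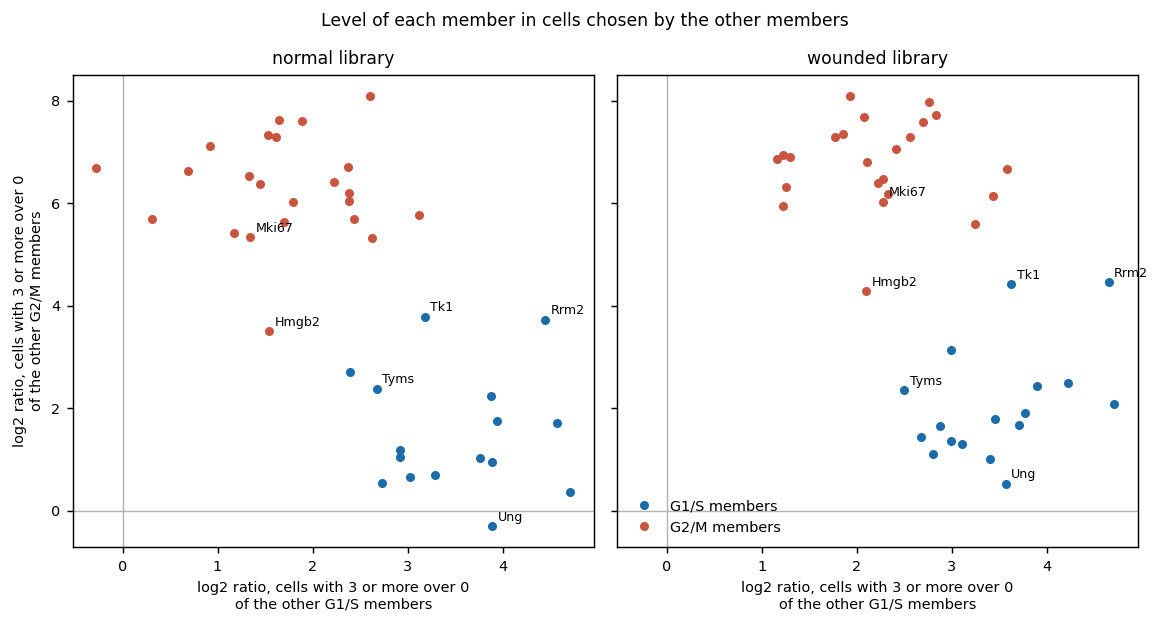
Each point is a member, in the normal (left) or wounded library (right). The x axis is its log2 ratio between cells with at least 3 and cells with 0 of the other G1/S members, and the y axis the same for cells chosen by the other G2/M members. G2/M members (red) lie high, at median y values of 6.39 and 6.87 (Plk1 and Bub1 of the normal library at lower bounds). G1/S members (blue) lie to the right and low, at 1.11 and 1.79. Cells on each axis were chosen by members of a list, so high values of that list follow in part from this choice.

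Cells outside the deposited tables were low in G2/M members. In the normal library 24 of 40 members were at least 2-fold lower outside than inside and 0 higher, against 9.96% lower and 13.6% higher among 12700 genes. These were 23 of 23 G2/M genes and Tk1, thymidine kinase. Medians were -0.34 for G1/S and -1.84 for G2/M members. In the wounded library 30 of 40 were lower and 0 higher, against 11.3% and 14.3% of 15180 genes, with medians of -0.98 and -2.57. Cenpe in the normal library was at -2.43 (-2.99 to -1.92) and Kif2c, a kinesin that shortens microtubules, in the wounded library at -3.85 (-4.98 to -2.91). Plk1, the Polo kinase, was at -2.28 (-3.01 to -1.63) and -2.85 (-3.53 to -2.24), whereas Gins2, a helicase cofactor, was at -0.00 (-0.28 to 0.28) and -0.24 (-0.47 to -0.01). Cdt1 in the normal library was at 0.02 (-0.38 to 0.42) and Tyms in the wounded library at -0.31 (-0.44 to -0.18).

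Among clusters of these outside cells, an unnamed normal cluster of 132 cells led by Egr4, Saa3 and Cxcl1 parted the waves most. Of its 131 cells at 2000 UMIs, 19 (14.5%) reached 3 G1/S members and 2 (1.53%) reached 3 G2/M members. Its median levels were 36.9 CPM for G1/S and 4.81 CPM for G2/M members. Hair follicle-like cells of the normal library reached 9.605% for each list. Their G2/M median of 37.4 CPM lay above the 20.6 CPM of normal Suprabasal, the lowest named cluster. It lay below normal Basal (44.7 CPM), Rectum (45.4 CPM) and Anal Canal (52.3 CPM). An unnamed wounded cluster led by Krt42, Nppc, Col17a1 and Lgr5 reached 11.6% and 9.68%.

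Clusters with the same name were set side by side between libraries. This cannot separate the wound from the library, the software version, the cell filters, the pooled mice or the time since tamoxifen. In the normal library alone, the authors had also removed hair follicle cells from the basal cluster by Lgr5, Lhx2 and Tbx1 expression. The ratios also set different cells side by side: wounded Basal, with 5454 CPM of suprabasal stratified markers and 103 CPM of Ccnd1, was nearer in both to normal Anal Canal (6456 and 119 CPM) than to normal Basal (388 and 8.87 CPM). Other markers went the other way. The basal stratified markers summed to 12796.5 CPM in wounded Basal, 10632 CPM in normal Basal and 18581 CPM in Anal Canal. For the hair follicle markers the sums were 339, 164 and 33.6 CPM in the same order. In Basal 4 of 40 members were at least 2-fold higher in the wounded library and 3 were lower, against 15.6% and 13.6% of 11035 genes. Cenpe, a kinetochore motor, was at 1.44 (1.07 to 1.83), Cenpf at 1.21 (1.01 to 1.42), Mki67 at 1.20 (0.98 to 1.44) and Top2a at 1.07 (0.85 to 1.29). Rrm2 was at -1.25 (-1.60 to -0.90), Ccne1 at -1.22 (-2.17 to -0.28) and Cdk1 at -1.13 (-1.42 to -0.84). The counts depended on the values used: with CPM averaged over cells 9 were higher and 0 lower and the median of all members turned from -0.26 to 0.10, and the whole numbers of the deposited table gave 8 higher and 1 lower.

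In Suprabasal 6 of 39 members were at least 2-fold higher after the wound and 5 were lower, against 16.9% and 5.63% of 11430 genes. Cenpf was at 2.22 (1.82 to 2.66) and Mki67 at 2.002 (1.61 to 2.42). Rrm2 was at -1.76 (-2.12 to -1.40), Ccne2 at -1.55 (-2.70 to -0.34) and Cdk1 at -1.20 (-1.56 to -0.83). With CPM averaged over cells 12 were higher and 2 lower, and with cells under 10% mitochondrial UMIs 3 were higher. In Rectum 1 of 37 members was higher and 7 were lower, all 7 of them G2/M genes, against 12.7% and 6.41% of 10197 genes. The goblet markers summed to 3760 CPM in normal and 7939 CPM in wounded Rectum, and the part of this difference in the ratios was not tested. Ccnb1 was at -1.69 (-2.21 to -1.15), Ccna2 at -1.55 (-2.10 to -0.97) and Mki67 at 0.43 (0.11 to 0.77). With cells under 10% mitochondrial UMIs 12 were lower and Mki67 was at -0.25, and with CPM averaged over cells 3 were higher and 2 lower. Cdt1 was at 1.10 (-0.35 to 3.03) and Tyms at 0.45 (-0.08 to 1.03).

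Transcript length moved with these ratios. The rank correlation of the wounded over normal log2 ratio with the longest annotated transcript was 0.44 in Basal, 0.46 in Suprabasal and 0.35 in Rectum over the members, and 0.30, 0.35 and 0.20 over all genes. Within libraries it lay between -0.12 and 0.19 over the members. After subtracting the median of genes of like length, an alternative chosen after seeing the data, 1 member was higher and 1 lower in Basal. The part of length in the result was not tested further.

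**Figure D5:**
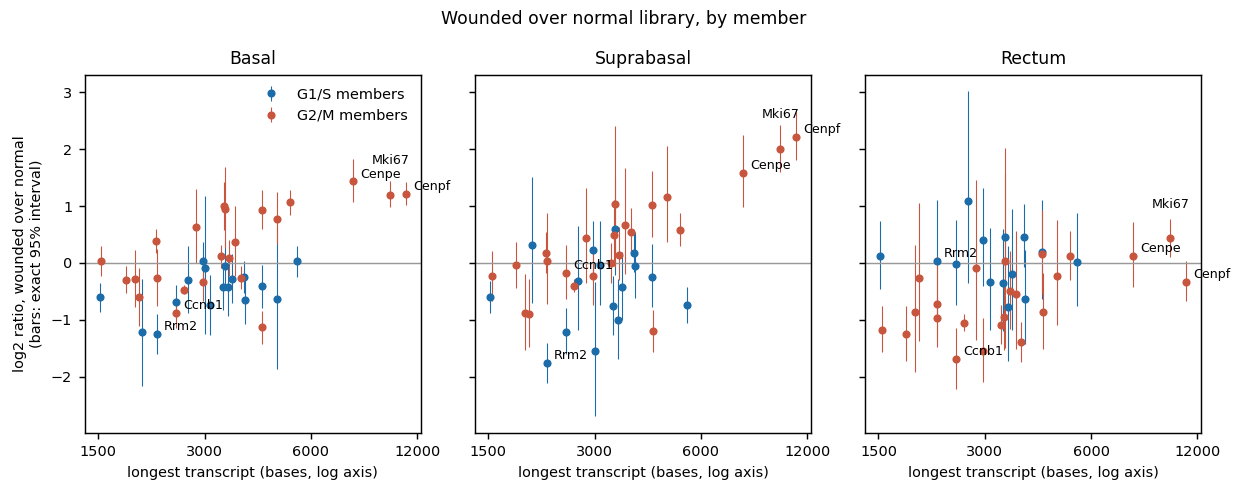
Log2 ratio of wounded over normal for each member (y axis, with exact 95% intervals) against its longest annotated transcript in bases (x axis, log scale) in Basal, Suprabasal and Rectum. In Basal and Suprabasal the longest members, Cenpf, Mki67 and Cenpe, lie above 0, and Rrm2 lies below 0.

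Another 39 cell cycle genes that are not members were read beside them. Ccnd1, a D cyclin that starts the G1 programme, stood at 8.87 CPM in normal Basal, 6.57 CPM in Suprabasal, 119 CPM in Anal Canal and 28.4 CPM in Rectum. Its wounded levels were 103 CPM in Basal, 7.86 CPM in Suprabasal, 1.92 CPM in Regeneration, 1.88 CPM in Wound_Stress, 103 CPM in Hybrid and 43.5 CPM in Rectum. Ccnd2 ranged from 93.8 CPM in Suprabasal to 419 CPM in Rectum in normal and from 155 CPM in Basal to 294 CPM in Rectum in wounded clusters. Cdkn1a was highest in Suprabasal in both libraries, at 124 and 122 CPM, and was at 116 CPM in Regeneration and 19.2 CPM in Wound_Stress. Foxm1, which drives G2/M promoters, was sparse, at 13.0 CPM in normal Anal Canal and 12.4 CPM in wounded Basal and at most 8.52 CPM elsewhere.

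In normal Basal over Suprabasal 9 of 34 of these genes were at least 2-fold higher and 1 was lower, with Myc, the growth factor-induced transcription factor, at 3.23, Fbxo5 at 2.53, Cdkn1a at -0.56 and the inhibitor Cdkn2b at -2.32. In Basal over Anal Canal 1 of 37 was higher and 2 were lower, with Myc at 2.17, Wee1 at 0.92, Cdkn2b at -1.89 and Ccnd1 at -3.75. In normal Rectum over the rest 4 of 38 were higher and 6 lower, with E2f2 at 1.73, Cdc25a at 1.39, Myc at -2.09 and Fbxo5 at -2.68. Myc was above 2 on the log2 scale in Basal over both stratified neighbours. Among all genes, 17.1% were higher and 6.57% lower in Basal over Suprabasal, and 10.2% and 8.73% in Basal over Anal Canal. For Rectum over the rest these shares were 17.5% and 20.2%. The counts were not tested against these shares.

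In Regeneration and Wound_Stress over the rest 3 of 38 were higher and 4 lower, with Myc at 2.28, Wee1 at 1.27, Cdkn2b at -3.63 and Ccnd1 at -4.54. In Hybrid over Rectum 13 of 38 were higher and 0 lower, led by Cdc25c, the phosphatase that activates Cdk1, at 2.56. In wounded over normal Basal 3 of 37 were higher and 9 lower, with Ccnd1 at 3.54, Cdkn2b at 3.1005, Cdkn2c at -1.91 and Myc at -3.06. In Suprabasal 6 of 36 were higher and 4 lower, and in Rectum 3 of 36 were higher and 5 lower. Outside over inside, 1 of 38 was higher and 7 lower in the normal library, and 2 of 38 were higher and 14 lower in the wounded library. Among all genes, the shares higher and lower were 6.65% and 19.6% for Regeneration and Wound_Stress and 13.4% and 13.9% for Hybrid over Rectum. Wounded over normal gave 15.6% and 13.6% in Basal, 16.9% and 5.63% in Suprabasal and 12.7% and 6.41% in Rectum. For outside over inside they were 13.6% and 9.96% in the normal and 14.3% and 11.3% in the wounded library.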

How the data were processed

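Sorted anorectal epithelial cells were measured by 10x 3′ single-cell RNA sequencing in 1 normal and 1 wounded library. The authors made the deposited count matrices (UMI counts, mm10) with Cell Ranger, 3.1.0 in the header of the normal and 4.0.0 in that of the wounded counts. The values in the deposited tables, which also carry the cluster names, are on a natural log scale: each is log(1 + x) of a whole number x. The step that made those numbers is not given in the sources used here. The authors used Seurat 3.2.2 per the submitters' processing notes and left out anal gland, hair follicle and fibroblast clusters. From the normal library they also removed cells by Lgr5, Lhx2 and Tbx1 expression.

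From the counts, UMIs were summed per cluster and given as CPM with exact Poisson 95% intervals. Log2 ratios carry exact binomial intervals, and shares exact Clopper-Pearson intervals after thinning to 2000 UMIs. All intervals cover counting error only. A gene needed 20 UMIs in both groups together, except in the medians by promoter letters, and 2-fold was the call. Outside cells were clustered with scanpy 1.11.5 (2000 variable genes, 10 components, resolution 0.2) and named from fixed markers. Scrublet called 4 of 1548 and 0 of 5225 cells, so the 6% of cells with the highest scores were removed as an alternative instead. The ratio code was tested on simulated counts, and the thinning code on the counts of normal Basal cells. No test was run, since each condition is a lone library. Depth was 17617944 UMIs over all normal and 88260050 over all wounded barcodes. Alternatives changed the scaling, cell filters, depth and minimum. Every member entered the counts and medians, in the ratios where it met the minimum. Levels by cluster are given for Mki67, Top2a, Pcna, Mcm6 and the member of each role with the most UMIs. Ratios are given for the 2 highest and 2 lowest members of a comparison. Some members, such as Ung, Aurka and Cdc20, have no value of their own in the text. Other genes named were chosen after their values were seen. The members and lists were chosen with earlier results of these data known.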

Additional observations from a re-analysis of the deposited data

Results flagged for a closer look

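Some members moved in opposite directions in clusters of the same name, with intervals on either side of 0; none of these differences was tested. The wounded over normal log2 ratio of Cenpa was -0.26 in Basal and 0.55 in Suprabasal, a difference of -0.81, and -1.39 in Rectum, 1.94 below that of Suprabasal. For Kif23, a kinesin of cytokinesis, it was 1.00 in Basal and -0.95 in Rectum, a difference of 1.94. For Ube2c it was 0.39 and -0.97, a difference of 1.36.

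Rectum over the other clusters also changed sign between libraries. For Cenpa the log2 ratio was -0.21 in the wounded and 0.40 in the normal library, a difference of -0.61. For Cenpf it was -0.41 and 0.65, a difference of -1.06.

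Barcodes with 5000 genes or more, which the filter of the study removes, carried a high G2/M signal in the wounded library. The G2/M members without Hmgb2 stood at 3088 CPM (mitochondrial genes left out of the total) in 86 wounded barcodes and at 1155 CPM in 9 normal ones. At 2000 UMIs 46 of the 86 (53.5%, 42.4% to 64.3%) had at least 3 G2/M members. Of the 9 normal barcodes 3 did (33.3%, 7.49% to 70.1%), and the intervals overlap. At a limit of 4000 genes the order turned, with 45.6% of 114 normal and 38.3% of 394 wounded barcodes. The part of doublets in these values was not tested.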

How the results depend on the processing

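Of 307 alternative values for the main results 245 stayed near the reported value. Near meant a count within 1.5 times, a share within counting error or a correlation within 0.05. For a median it meant within the counting error of a typical single member, which is not the error of a median. Of the 307, 88 were median log2 ratios, and 7 of these had the opposite sign: Regeneration and Wound_Stress and wounded over normal Basal with the mean of per-cell CPM, and wounded over normal Suprabasal, reported at -0.035, at 0.024 to 0.48 under 5 alternatives. Of 352 further log2 values, 15 had the opposite sign. No paired analysis was possible because each condition is 1 library. A gene limit of 6000 gave no value in the normal library.

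With the mean of per-cell CPM, the median for Regeneration and Wound_Stress was -0.16, for wounded over normal Basal 0.10 and for wounded outside cells -1.64; members lower numbered 7 in Basal over Anal Canal, 1 in Hybrid over Rectum and 1 in wounded Rectum; normal Rectum had 0 higher; and wounded over normal gave 9 higher and 0 lower in Basal, 12 and 2 in Suprabasal, 3 and 2 in Rectum, with Mcm6 in Basal at 0.19. With cells under 10% mitochondrial UMIs, normal Rectum had 4 higher and 7 lower, Regeneration and Wound_Stress 1 higher with Mki67 at 0.17, wounded Rectum 1 lower, and wounded over normal 3 higher in Suprabasal and 12 lower in Rectum with Mki67 at -0.25. With the deposited whole numbers, Hybrid over Rectum had a median of 0.52, 2 higher, 1 lower and Mki67 at -0.021, normal Rectum 0 higher, and wounded over normal 8 higher and 1 lower in Basal, 3 lower in Suprabasal, and 0 higher and 4 lower in Rectum. In wounded over normal Basal, 7 members were higher without mitochondrial genes and 7 without the 50 genes with the most UMIs; minus the median of genes of like length, chosen after seeing the data, 1 was higher and 1 lower in Basal and 2 higher in Suprabasal. Without the highest Scrublet scores wounded over normal Rectum had 0 higher. With unnamed outside clusters only, the outside medians were -2.12 in normal and -1.58 in wounded, with Mcm6 at 0.21 in wounded.

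Thinned to 1000 UMIs, to 4000 UMIs, not thinned, at 2 genes and at 5 genes, the G2/M share of named cells was 15.3%, 25.7%, 30.9%, 26.8% and 14.9% in normal and 12.3%, 19.3%, 24.9%, 19.5% and 11.4% in wounded. In the same order the G1/S share was 5.59%, 23.8%, 39.1%, 21.5% and 4.36% in normal and 2.44%, 15.9%, 31.3%, 15.0% and 1.78% in wounded. Wounded barcodes above the gene limit had 38.3% at a limit of 4000 genes and 65.1% at 4000 UMIs. Normal ones had 45.6% and 44.4%. At 4000 UMIs the median correlations were 0.152 and 0.302 in normal and 0.131 and 0.3596 in wounded, for G1/S and G2/M pairs. The cause of these changes was not tested. Of 2250 gene values whose interval excluded 0, 22 changed sign. The 309 of them at a minimum of 50 UMIs repeat the reported ratios, so they could not change. Leaving out mitochondrial genes, or the 50 genes with the most UMIs, moved all ratios of a comparison by the same amount.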

Other observations

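Barcodes with at least 25% mitochondrial UMIs and more than 200 genes also carried the members. The G2/M members without Hmgb2 stood at 644 CPM (mitochondrial genes left out of the total) in 460 normal barcodes and at 648 CPM in 8973 wounded ones. The G1/S members stood at 307 and 201 CPM.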
